A study of Mus musculus with 4 samples.

Results

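The centromere-proximal ends of the 19 mouse autosomes were examined in a replication profile of embryonic stem cells with and without Snf2h. The profile came from TrAEL-seq, a sequencing method that captures DNA at free 3′ ends. Its value, called polarity here, is the signed imbalance between the DNA strands of the captured ends in windows of 100 kb that start every 25 kb, in percentage points between -50 and 50. The cells were the 129S6/SvEvTac line grown with serum and LIF on gelatin. They were either wildtype (WT, 2 libraries from duplicate cultures) or labelled SNF2KO (KO, 2 libraries), and the labels name no drug, no other allele and no clone. Snf2h expression was not analysed here, so the knockout rests on its label, and p-values measure only the spread between these cultures. On each autosome, the members were the windows with a value in all 4 libraries whose start lay within 3 Mb of the first such start. This gave 2235 windows, or 2.36% of the 94694 autosomal windows with a value in all libraries, out of 109033 windows in the table. The first start lay between 2925001 and 3150001 on 18 autosomes in GRCm38, and at 5825001 on chromosome 14. Distances below are those from this first start to the start of a window.

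Mouse chromosomes carry their centromere at one end. Arrays of minor and major satellite repeats lie there and form pericentric heterochromatin, and the assembly shows this end as a gap. The extent of the gap was not used here, so the first start marks the first window with a value in all libraries and may lie some way from the gap, and it lies farther in on chromosome 14 than on the other autosomes. At a replication fork the captured 3′ ends lie mostly on one strand, so polarity changes sign where forks of opposite direction part or meet. Snf2h, also called Smarca5, is the ATPase of the ISWI complexes, which slide and space nucleosomes, and its ACF complex is known for a role in the replication of heterochromatin. The table and labels do not state which fork direction a positive value stands for, so the sign is given here without a direction of movement.

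A climb of the profile from low to high polarity was called a rise when the mean of the 4 libraries, after a running mean of 5 windows, gained at least 1 SD (14.1 points) between a low and the next high. The 3 tallest rises of the chromosome ends lay on chromosomes 8, 15 and 10, and promoters inside them are shown as examples of the sequence there. Since the sign is not tied to a direction, a rise may mark where forks part or where they meet. Each promoter runs from 250 bases before to 50 bases after a gene start, is read 5′ to 3′ on the strand of the gene, and comes from RefSeq for GRCm38.p6. Capitals mark every CG dinucleotide, which reads the same on both strands. Among the promoters the table lists in each rise (26, 6 and 6 on chromosomes 8, 15 and 10; several genes there, such as Insr, Mroh2b and Akap12, have none listed inside the rise), the one with the most CG is given. The promoter of Tex45, which lies in the same rise as Zfp358 and holds no CG, is given for contrast.

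Zfp358, chr8:3492888-3493187, plus strand: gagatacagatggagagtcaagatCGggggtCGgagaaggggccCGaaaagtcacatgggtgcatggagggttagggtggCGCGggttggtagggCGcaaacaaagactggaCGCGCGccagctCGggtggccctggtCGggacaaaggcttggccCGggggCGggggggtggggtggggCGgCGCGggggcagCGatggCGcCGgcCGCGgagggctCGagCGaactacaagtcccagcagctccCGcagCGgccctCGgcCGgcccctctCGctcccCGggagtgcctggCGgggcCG
Tex45, chr8:3470612-3470911, plus strand: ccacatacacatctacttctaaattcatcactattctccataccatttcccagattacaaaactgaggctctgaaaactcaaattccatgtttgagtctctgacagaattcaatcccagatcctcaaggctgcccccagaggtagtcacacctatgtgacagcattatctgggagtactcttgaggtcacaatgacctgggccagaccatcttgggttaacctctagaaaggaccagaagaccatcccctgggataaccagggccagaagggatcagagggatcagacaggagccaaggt
Prkaa1, chr15:5143611-5143910, plus strand: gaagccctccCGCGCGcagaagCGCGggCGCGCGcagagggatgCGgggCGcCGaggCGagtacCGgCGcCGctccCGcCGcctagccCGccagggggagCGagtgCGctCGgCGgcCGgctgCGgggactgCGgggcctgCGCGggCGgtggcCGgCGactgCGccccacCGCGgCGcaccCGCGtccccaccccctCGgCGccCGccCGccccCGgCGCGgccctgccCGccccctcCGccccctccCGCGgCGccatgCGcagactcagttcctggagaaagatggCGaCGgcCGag
Zbtb2, chr10:4388059-4388358, minus strand: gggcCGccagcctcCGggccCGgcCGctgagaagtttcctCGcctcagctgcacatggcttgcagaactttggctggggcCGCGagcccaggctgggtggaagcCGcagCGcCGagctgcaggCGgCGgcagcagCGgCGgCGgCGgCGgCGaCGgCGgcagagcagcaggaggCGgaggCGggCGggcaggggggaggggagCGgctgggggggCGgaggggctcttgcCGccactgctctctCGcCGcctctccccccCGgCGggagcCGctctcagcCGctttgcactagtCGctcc

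Zfp358 encodes a zinc finger protein, Prkaa1 a catalytic subunit of the AMP-activated kinase, and Zbtb2 a zinc finger protein with a BTB domain. Their promoters hold 31, 52 and 33 CG, against a median of 14 over all 20085 promoters of autosomal protein-coding genes, but they were chosen for their high counts. All 26 promoters listed in the rise on chromosome 8 had a median of 6.5 CG, and the 6 each in the rises on chromosomes 15 and 10 had medians of 18. The 619 promoters in the chromosome ends had a median of 14 CG as well, and 97.6% of them held at least 1 CG, against 95.6% of all promoters. In the first 500 kb, where 71 promoters lay, the median was 12. A window of 100 kb is far longer than a promoter, so these sequences describe the rises and are not mapped start sites.

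The first 500 kb carried the lowest polarity of the 3 Mb in every library. Over the 360 windows of this bin, mean polarity was -10.5 and -8.24 points in WT replicates 1 and 2, and -13.5 and -10.7 points in KO replicates 1 and 2. KO was below WT in each pairing of libraries, although KO replicate 2 was close to WT replicate 1. Means per genotype came to -9.37 ± 1.60 points (WT) and -12.1 ± 2.00 points (KO; SD, n = 2 each). KO minus WT was -2.71 points, which exceeds the pooled spread of replicates, 1.81 points (exact permutation p = 0.333, two-sided, the smallest that 2 against 2 libraries allow; 1 after Benjamini-Hochberg adjustment over the 6 bins).

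Scaled by the amplitude of each library, the first bin no longer separated the genotypes. Over all autosomal windows the SD of polarity was 14.6, 12.8, 19.4 and 14.5 points in WT replicates 1 and 2 and KO replicates 1 and 2. In units of these SDs, and after subtraction of each library's mean, the first bin stood at -0.709 and -0.630 (WT) versus -0.684 and -0.724 (KO). The groups then overlapped, and KO minus WT was -0.0343 SD, within the replicate spread of 0.0444 SD (exact permutation p = 0.667).

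**Figure D1:**
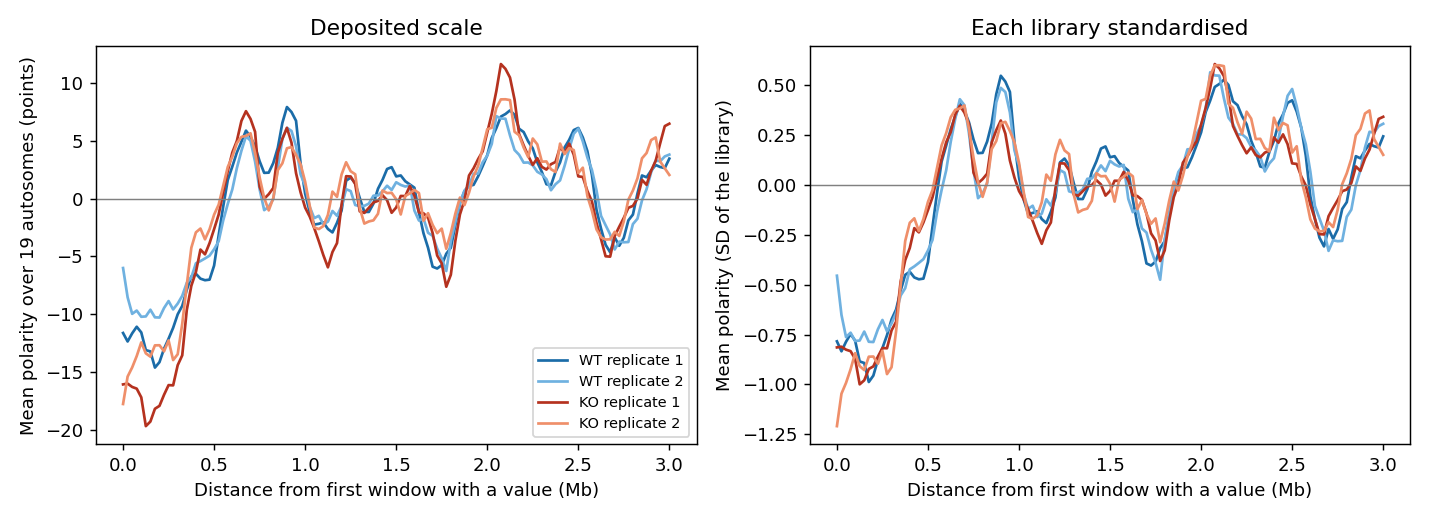
Mean polarity over the 19 autosomes against distance from the first window with a value, with 1 line per library, on the deposited scale in points (left) and in SD of each library (right). All 4 lines start below 0 and cross it between 533 and 584 kb, and the gap between WT and KO lines in the first 500 kb is narrower on the right.

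Beyond the first bin, the mean of each later bin had the same sign in all libraries and lay closer to 0. Between 500 kb and 1 Mb it was 3.30 and 1.82 points (WT) versus 3.03 and 2.66 points (KO). From 1 to 1.5 Mb the means lay between -1.44 and -0.228 points, and from 1.5 to 2 Mb between -1.19 and -0.491 points. In SD of each library the groups did not overlap from 1.5 to 2 Mb, at -0.0678 and -0.0594 (WT) versus -0.0509 and -0.0225 (KO) (exact permutation p = 0.333). The second positive stretch came from 2 to 2.5 Mb, with 4.69 and 3.70 points (WT) versus 5.62 and 5.14 points (KO). There KO exceeded WT in each pairing, by 1.19 points on average with replicates spread by 0.550 points (exact permutation p = 0.333; 1 after adjustment over the bins), and the groups overlapped after standardising. In the last bin, from 2.5 to 3 Mb, all values lay between 0.273 and 0.512 points. Within bins the profiles differed in places, as in the 100 kb from 2500 kb, with 4.37 and 4.23 points (WT) versus 1.04 and 1.00 points (KO), a stretch named after its values were seen.

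The contrast between the first and the last 1 Mb of the region was negative in every library. It was -6.12 and -5.21 points (WT) versus -8.12 and -6.77 points (KO). KO minus WT was -1.78 points, beyond the replicate spread of 0.811 points and without overlap of the groups (exact permutation p = 0.333). After standardising the groups overlapped (KO minus WT -0.0300 SD, exact permutation p = 0.667), and the contrast itself rested on the first 500 kb. With these left out it was 0.784 and -0.178 points (WT) versus 0.143 and -0.107 points (KO), of mixed sign, and KO minus WT was -0.285 points (exact permutation p = 1). Averaged over the whole 3 Mb, positive and negative stretches nearly cancelled. The mean was -0.522 and -0.557 points (WT) versus -1.11 and -0.443 points (KO). WT lay between the KO libraries, and KO minus WT, -0.239 points, was within the replicate spread of 0.336 points (exact permutation p = 1). Its sign rested on KO replicate 1, without which it was 0.0968 points, and on the first 500 kb, without which it was 0.236 points.

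The shape of the mean profile near the first start was read at its full spacing of 25 kb, a measure chosen after the profile had been seen. The lowest point was -14.6 and -10.3 points in WT, at 175 and 200 kb. In KO it was -19.6 points at 125 kb in replicate 1 and -17.7 points at 0 kb in replicate 2. The profile first crossed 0 at 558 and 584 kb in WT and at 543 and 533 kb in KO. The KO crossings of this mean profile lay 32.8 kb closer to the first start on average, with replicates spread by 14.3 kb and windows spaced 25 kb (exact permutation p = 0.333). The median over chromosomes of the first sign change, given further on, lay 62.5 kb farther in KO with a running mean of 5 windows. It lay 25 kb farther, with overlapping groups, with a running mean of 9 windows. That median counts changes in either direction, whereas the mean profile crossed from below 0 to above it, so they are unlike measures. From 0 to 300 kb, KO was lower than WT (-17.1 and -13.8 points against -12.4 and -9.35 points). From 400 to 600 kb it was higher (-2.53 and -1.20 points against -4.39 and -3.91 points). In SD of each library the stretch from 0 to 300 kb was -0.881 and -0.952 in KO and -0.848 and -0.729 in WT, so the groups stayed apart there after scaling, with KO minus WT at -0.128 SD and replicates spread by 0.0694 SD (exact permutation p = 0.333). The climb from the lowest point to the highest point within 1 Mb was 22.5 and 16.4 points (WT) versus 27.2 and 23.3 points (KO). In SD of each library it was 1.54 and 1.27 (WT) versus 1.40 and 1.61 (KO), and the groups overlapped.

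The negative start was a feature of most but not all chromosomes. Mean polarity of the first 500 kb was below 0 in all 4 libraries on 15 of the 19 autosomes, above 0 in all 4 on chromosomes 1, 11 and 17, and of mixed sign on chromosome 14, which had only 5 windows in this stretch. Of all 4744 blocks of 500 kb tiled along the autosomes, 41.4% were below 0 in all 4 libraries. Chromosome 14 had too few windows for a block, and 8 of the 18 first blocks that remained lay under the 10th percentile of all blocks, which was -14.8 points.

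**Figure D2:**
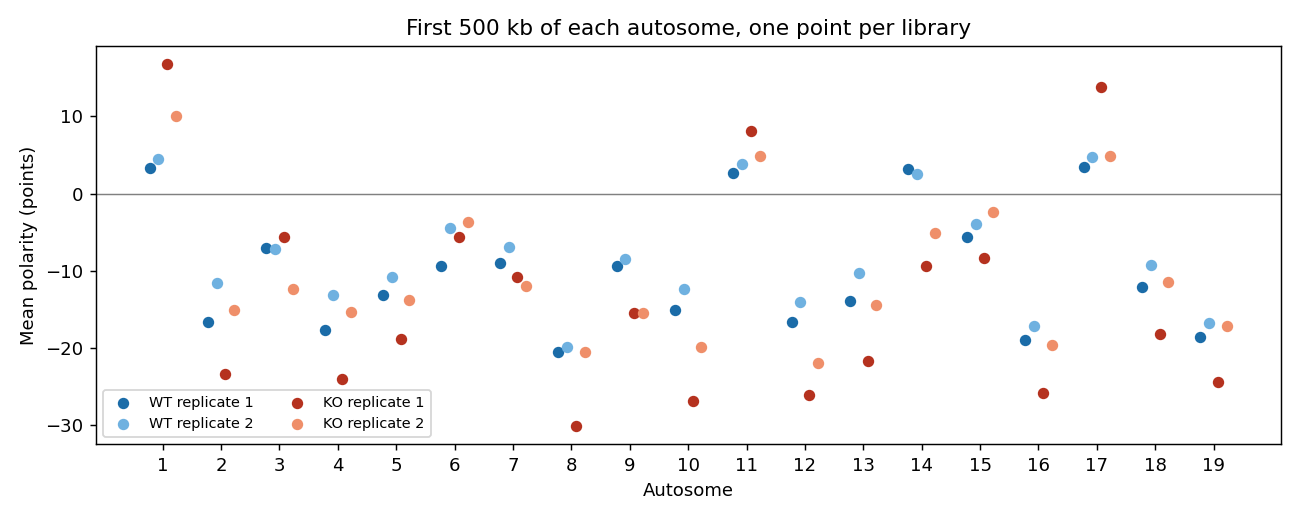
Mean polarity in points of the first 500 kb of each autosome, with 1 point per library. On 15 autosomes all 4 points lie below 0, and on chromosomes 1, 11 and 17 all 4 lie above it.

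Chromosome 8 had the lowest start. Its first 500 kb averaged -20.5 and -19.9 points (WT) versus -30.2 and -20.6 points (KO). The nearest protein-coding gene was Insr, the insulin receptor, at 3150922 to 3279649. Chromosome 16 followed with -19.1 and -17.2 points (WT) versus -25.9 and -19.7 points (KO), and its nearest gene was Olfr161, an olfactory receptor gene, at 3592398 to 3593339. On chromosome 12 the values were -16.6 and -14.0 points (WT) versus -26.1 and -22.0 points (KO), and its first genes were Rab10, a small GTPase of membrane traffic, Kif3c, a kinesin, and Asxl2, a Polycomb-linked chromatin protein. In contrast, chromosome 1 began at 3.27 and 4.53 points (WT) versus 16.8 and 10.1 points (KO), next to the gene Xkr4, a member of the XK family of membrane proteins, at 3199733 to 3671948. Chromosomes 8, 12 and 16 are those with the lowest means of the 4 libraries and chromosome 1 the one with the highest. They were singled out after their values were seen.

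The genotypes did not overlap at most of these starts, and blocks without overlap were common elsewhere too. In 11 of the 18 first blocks the KO libraries lay on one side of the WT libraries, and over all blocks of 500 kb the same held for 48.2%. In the count by chromosome, which includes chromosome 14, 12 starts were separated, 9 of them with KO lower. No first block differed between genotypes in limma after adjustment over all 4744 blocks. The lowest adjusted p was 0.294, on chromosomes 1, 10 and 12, with differences of 9.55 points (SE 2.70), -9.68 points (SE 2.82) and -8.72 points (SE 2.42). After standardising, the starts of chromosomes 1 and 10 had limma adjusted p-values of 0.0164 and 0.0402.

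The stretches that follow differed from chromosome to chromosome. With a running mean of 5 windows, the first sign change, in either direction, lay at a median of 400 and 425 kb in WT. In KO the median over chromosomes was 500 and 450 kb. On 12 autosomes the position of this change lay within 100 kb in all 4 libraries. On chromosome 10 it came late, between 1100 and 1175 kb, and on chromosome 9 early, between 75 and 100 kb. On chromosome 13 it lay at 75 and 125 kb in WT and at 575 and 550 kb in KO. These changes ran in opposite directions, from above 0 to below it in WT and from below 0 to above it in KO. WT also turned from below 0 to above it near the KO position, with 3.39 points at 525 kb in replicate 1 and 0.679 points at 550 kb in replicate 2. With a running mean of 9 windows the medians were 475 and 525 kb (WT) versus 575 and 475 kb (KO), and the groups overlapped (exact permutation p = 1). This running mean has its first value at 100 kb, so changes at 75 or 100 kb could not be found with it. With it the first change lay between 525 and 575 kb in all libraries on chromosome 13, and at 475 kb on chromosome 9. On chromosome 13 the window from 3000001 to 3100000 had 3.95 and 5.68 points (WT) versus -21.4 and -13.6 points (KO).

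**Figure D3:**
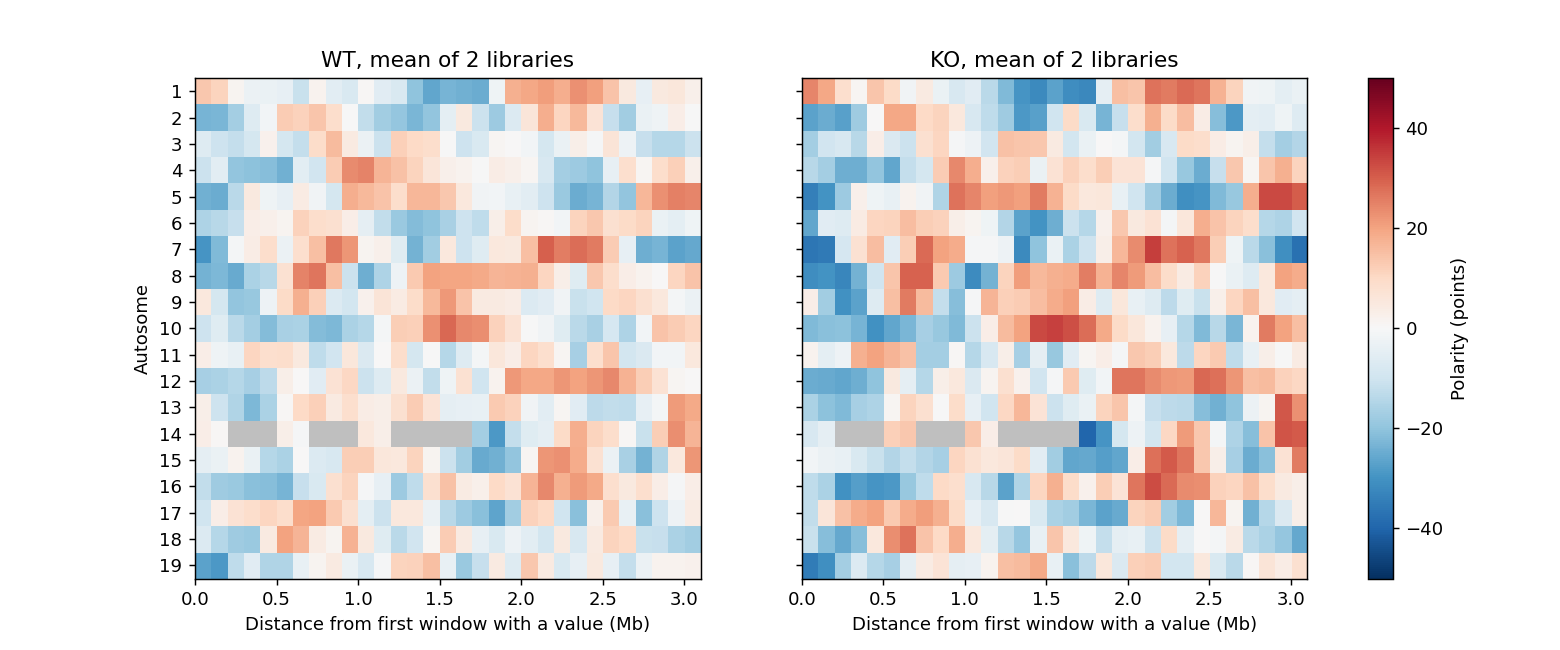
Polarity in points (colour) of each autosome in steps of 100 kb of distance from the first window with a value, as the mean of 2 WT libraries (left) and of 2 KO libraries (right), with grey where no window had a value in all libraries. Most rows start blue (below 0), and the order of red and blue stretches along a row is similar on both sides.

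Single windows, blocks and rises were then tested for a difference between genotypes in limma, each fitted on the whole autosomal table. Of the 554 member windows that do not overlap, 0 passed an adjusted p of 0.05, while 13 of 23672 (0.0549%) passed over the autosomes. At an unadjusted p under 0.05 there were 76 member windows (13.7%), against 2889 (12.2%) of all windows. Of 110 member blocks of 500 kb, 0 passed, and over the genome 0% did. There were 17 (15.5%) at an unadjusted p under 0.05, against 654 (13.8%) of all blocks. Of the 19 blocks of 3 Mb, 0 passed, again with 0% over the genome, and 1 of them, on chromosome 13, had an unadjusted p under 0.05, against 124 of 797 (15.6%) over the genome. In limma the median difference, KO minus WT, was 0.0208 points over member windows and -0.489 points over member blocks of 500 kb. The counts of 0 held with the atanh scale and depended on other settings. Without KO replicate 2, 132 windows (23.8%, against 20.2% of all windows), 44 blocks of 500 kb (40%, against 39.2%), 2 blocks of 3 Mb (10.5%, against 29.5%) and 30 rises (43.5%, against 42.6%) passed. After standardising, 1 window (0.181%, against 0.372%), 6 blocks of 500 kb (5.45%, against 6.94%), 0 blocks of 3 Mb (against 1.63%) and 4 rises (5.80%, against 11.6%) passed.

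The lowest adjusted p among member windows belonged to the window from 3000001 to 3100000 on chromosome 13, the start of that chromosome described above. KO minus WT was -22.3 points here, SE 4.66 (limma adjusted p = 0.0707), and 0.0312 after standardising. The replicate means were 4.81 ± 1.23 points (WT) versus -17.5 ± 5.51 points (KO) (SD, n = 2 each), and no protein-coding gene lay in it. The member window with the next lowest p, from 5200001 to 5300000 on the same chromosome, had a mean of 2.28 points (WT) versus -14.4 points (KO) (limma adjusted p = 0.173). Both were named for their p-value, after the fit had been seen.

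Means over the whole 3 Mb were largest in size on chromosomes 2, 8 and 19. On chromosome 2, where Fam171a1 is the nearest gene, they were -5.40 and -2.86 points (WT) versus -6.51 and -5.14 points (KO). On chromosome 8 they were 4.45 and 2.95 points (WT) versus 4.20 and 3.68 points (KO), positive although the first 500 kb were negative. On chromosome 19, next to Ighmbp2, which encodes a helicase, they were -4.27 and -3.37 points (WT) versus -4.46 and -2.63 points (KO). KO and WT libraries overlapped on all 3 of these chromosomes. The 3 Mb means were separated between genotypes on 7 of 19 autosomes, 5 with KO higher, against 48.7% of all 797 blocks of this size.

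The largest of these separated differences was on chromosome 13, whose nearest gene is Gdi2, a regulator of Rab GTPases. Its 3 Mb averaged -0.163 and -0.405 points (WT) versus -5.22 and -1.77 points (KO), and KO minus WT was -3.21 points, SE 1.14 (limma adjusted p = 0.277). On chromosome 5, next to the cell cycle kinase gene Cdk6, the means were -0.315 and -0.611 points (WT) versus 0.243 and 0.554 points (KO), and KO minus WT was 0.862 points, SE 0.803 (limma adjusted p = 0.646). On chromosome 1 they were -0.409 and 0.793 points (WT) versus 0.946 and 0.812 points (KO), and KO minus WT was 0.687 points, SE 0.846 (limma adjusted p = 0.719).

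**Figure D4:**
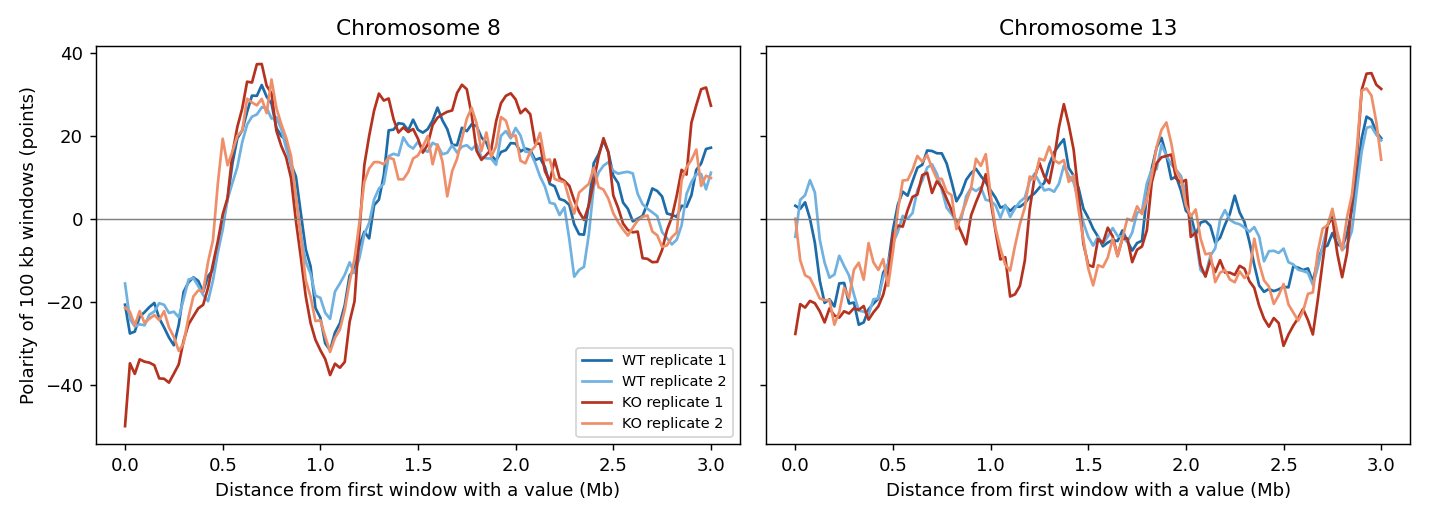
Polarity in points of 100 kb windows along the first 3 Mb of chromosomes 8 and 13, with 1 line per library. On chromosome 8 all lines climb together from below -15 points to above 20 points within the first 1 Mb, and on chromosome 13 the KO lines lie below the WT lines between 25 and 125 kb.

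Rises numbered 69 in the chromosome ends and 2521 over the autosomes, or 1.23 per Mb against 1.06 per Mb elsewhere. Falls numbered 58, or 1.04 per Mb against 1.07 per Mb. On 16 of 19 autosomes the first such segment was a rise, and 49.99% of all segments were rises. The midpoint of the first rise lay at 138 kb at the earliest (chromosome 17), at a median of 450 kb, and at 1913 kb at the latest (chromosome 14), and within 1 Mb on 16 autosomes. The first rises averaged 31.8 and 28.7 points (WT) versus 43.4 and 31.6 points (KO). KO replicate 2 fell between the WT values, and KO minus WT was 7.25 points with replicates spread by 6.14 points. In SD of each library the first rises were 2.17 and 2.23 high in WT and 2.23 and 2.17 high in KO.

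The tallest rise, on chromosome 8 from 3275000 to 3750000, gained 56.7 and 47.5 points (WT) versus 71.7 and 55.3 points (KO). It begins within Insr and runs past Arhgef18, Pex11g, a peroxisome gene, Tex45 and Zfp358, and 20 protein-coding genes overlap it. KO minus WT was 11.4 points here, SE 7.08 (limma adjusted p = 0.407). The second, on chromosome 15 from 4900000 to 5300000, gained 53.3 and 44.6 points (WT) versus 70.8 and 43.5 points (KO). It spans Mroh2b, the complement gene C7, Card6, the ribosomal protein gene Rpl37 and Prkaa1. The third, on chromosome 10 from 3925000 to 4600000, gained 48.5 and 50.6 points (WT) versus 62.8 and 45.6 points (KO). It holds Plekhg1, the folate enzyme gene Mthfd1l, Akap12, a scaffold for protein kinase A, Zbtb2 and Rmnd1. On chromosomes 15 and 10 KO replicate 2 lay below both WT libraries (limma adjusted p = 0.564 and 0.764).

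Of the 69 rises, 0 passed an adjusted p of 0.05 in limma, against 23 of 2521 (0.912%) over the autosomes. At an unadjusted p under 0.05 there were 9 (13%), against 390 (15.5%) of all rises. Rises were chosen by the mean of all 4 libraries, and 7 of the 69 (10.1%, against 8.28% of the rises elsewhere) had a WT mean under the minimum of 14.1 points, so that KO had to be higher there. Heights are therefore given as a description. Rises elsewhere averaged 29.4 and 25.7 points (WT) versus 38.5 and 28.3 points (KO), 5.85 points higher in KO, against 6.62 points in the chromosome ends. Averaged over the 69, the height was 27.5 and 24.2 points (WT) versus 37.8 and 27.1 points (KO), and KO replicate 2 fell between the WT values. In SD of each library this height was 1.88 and 1.88 (WT) versus 1.95 and 1.87 (KO), and the groups overlapped. KO minus WT was then 0.0243 SD, within the replicate spread of 0.0395 SD. The lowest adjusted p was that of the rise from 3900000 to 4100000 on chromosome 9, over Gucy1a2, a subunit of guanylate cyclase. It gained 15.1 and 17.9 points (WT) versus 41.2 and 32.1 points (KO), and KO minus WT was 20.2 points, SE 7.08 (limma adjusted p = 0.133, and 0.00837 after standardising), and was named after the fit had been seen.

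**Figure D5:**
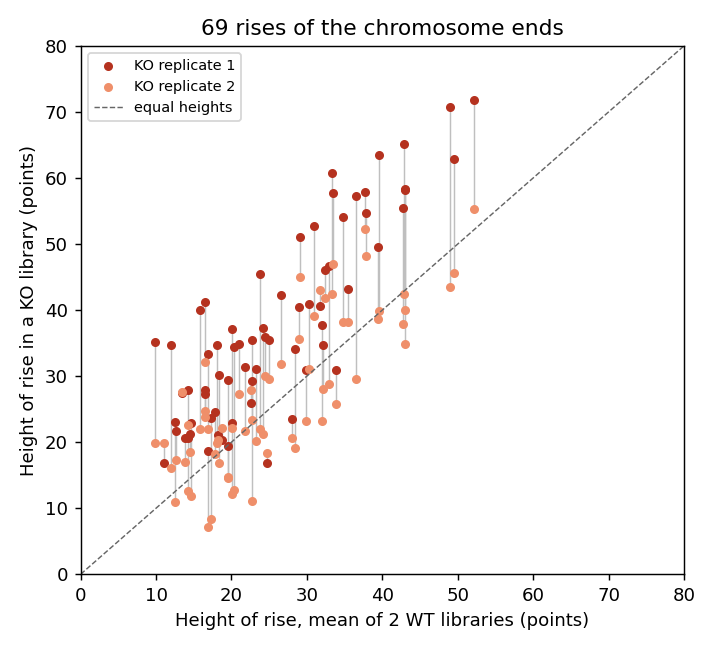
Height in points of the 69 rises of the chromosome ends in each KO library (vertical axis) against the mean of the 2 WT libraries (horizontal axis), with a grey line joining the KO libraries of a rise and a dashed line at equal heights. Points of KO replicate 1 tend to lie higher than those of KO replicate 2, with mean heights of 37.8 and 27.1 points.

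Compared with the rest of the autosomes, the 3 Mb as a whole differed by less than 1 point in each library, and the first 500 kb by -8.12 to -13.3 points. Members minus all other windows gave -0.405 and -0.412 points (WT) versus -0.940 and -0.286 points (KO) (exact sign-flip permutation p = 0.125, the smallest that 4 libraries allow). With the median over windows in place of the mean, the signs were mixed, from -0.893 to 0.376 points (exact sign-flip permutation p = 0.875). The mean was above 0 in all libraries over 5 Mb (0.154 points) or without the first 500 kb (1.42 points). Members minus the next 3 Mb of the same chromosomes gave values on both sides of 0, from -0.329 to 0.154 points (exact sign-flip permutation p = 0.5). The first 500 kb minus the rest of the 3 Mb gave -11.9 and -9.16 points (WT) versus -14.8 and -12.2 points (KO) (exact sign-flip permutation p = 0.125; 0.15 after adjustment over 6 such comparisons).

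The opposite ends of the chromosomes carried the same sign. In the last 500 kb at the distal end, mean polarity was -13.5 and -12.3 points (WT) versus -20.0 and -14.8 points (KO). The centromere-proximal 500 kb were less negative than this in all 4 libraries, by 2.96 to 6.48 points, with a mean of 4.40 ± 1.48 points (SD, n = 4; exact sign-flip permutation p = 0.125). Over 3 Mb, the centromere-proximal end was higher than the distal end by 2.69 points on average, again in all 4 libraries (exact sign-flip permutation p = 0.125).

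The amplitude within the chromosome ends was close to that elsewhere. The SD over member windows was 14.6 and 12.7 points (WT) versus 19.8 and 14.9 points (KO), with KO minus WT at 3.72 points and replicates spread by 2.64 points (exact permutation p = 0.333), and KO replicate 2 lay only just above WT replicate 1. Divided by the SD over all other windows, it was 1.00 and 0.986 (WT) versus 1.02 and 1.03 (KO). Both KO libraries were higher, by 0.0309 with replicates spread by 0.00822 (exact permutation p = 0.333). This excess was 0.0110 with the first 500 kb left out and 0.0618 over the first 1 Mb.

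Read depth is unknown because the table holds no counts, and windows without a value were concentrated on chromosome 14. Of the 2299 windows of the 3 Mb, 64 (2.78%) had no value in at least 1 library, against 1.39% of the other windows. Chromosome 14 held 55 of the 64, chromosome 16 held 5, chromosome 7 held 4 and the other autosomes none. Without chromosome 14 the share was 9 of 2178 windows (0.413%), below that elsewhere. Windows without a value came to 47 and 46 (WT) versus 58 and 64 (KO), 14.5 more in KO with replicates spread by 3.04 (exact permutation p = 0.333). Without chromosome 14 the difference was 2.5 windows. The spread between replicates was slightly wider in the first 500 kb than elsewhere. The SD of the difference between replicates in the first 500 kb was 5.42 points (WT) and 9.42 points (KO), against 5.05 and 8.61 points in the other windows, and its part in the values of the first 500 kb was not tested. Without chromosome 14, the first bin was -10.7 and -8.39 points (WT) versus -13.6 and -10.7 points (KO).

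The first 500 kb held fewer protein-coding genes and more pseudogenes than the 500 kb that follow. By gene midpoint in RefSeq, 67 protein-coding genes lay in the first 500 kb of the 19 autosomes, or 7.05 per Mb, and 3 autosomes had none there. The next 500 kb held 133, or 14 per Mb, the highest of the 6 bins, against 8.49 per Mb beyond 3 Mb. Density was 7.79 per Mb from 2.5 to 3 Mb, so the first 500 kb had the lowest density of the 6 bins. Over the next 3 Mb, outside the chromosome ends, density was lower still, at 5.91 per Mb. Pseudogenes numbered 91 in the first 500 kb and between 33 and 54 in each later bin. Of the 18 vomeronasal receptor pseudogenes of the chromosome ends, 9 lay in the first 500 kb, together with 3 of the 14 vomeronasal receptor genes, which encode pheromone receptors. Olfactory receptor genes numbered 2, both on chromosome 16, zinc finger genes of the Zfp and Zscan series 12, and defensin genes 0. Gene content differed widely between chromosomes, from 3 protein-coding genes on chromosome 3 (Hnf4g, a nuclear receptor, Zfhx4, a zinc finger homeobox factor, and Pex2, a peroxisome gene) to 119 on chromosome 19.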

How the data were processed

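The authors deposited 1 table of polarity, a score per 100 kb window and library, with 1 column per library. Per the file headers, alignment with Bowtie2 was to GRCm38 with rRNA added, duplicates were removed, and the submitters' processing notes name Trim Galore 0.6.5 and Bowtie2 2.4.1. The program behind the score, its sign and any minimum of reads per window are not given in the sources used here. The index in the label of WT replicate 2 differs from that in its column name, and the column was matched by the name WT2.

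Only autosomal windows of 100 kb that all 4 libraries had a value for were used. Differences were tested with limma 3.58.1 (lmFit and eBayes, R 4.3.3) over all windows spaced 100 kb, all blocks of 500 kb and 3 Mb tiled from the first start with at least 0.5 of their windows, and all rises, with Benjamini-Hochberg adjustment at 0.05. The fits were tested on simulated data with shifts of 29.9 points for windows and 42.5 points for rises. For blocks of 500 kb and 3 Mb the shifts were 16.9 and 6.31 points. Smaller shifts were not simulated, so this does not show whether differences of the size reported here would be found. Library values of KO against WT were tested by exact permutation, two-sided, in scipy 1.17.1, which cannot go below 0.333 here. Differences between stretches within each library were tested by exact sign-flip permutation over the 4 libraries, two-sided, which cannot go below 0.125. Standardising used each library's mean and SD over all autosomal windows. Gene intervals and promoter sequences are from RefSeq GRCm38.p6, and sequence outside promoters was not used here.

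The members, bins, tests and naming rules were chosen with earlier results of these data known. By that rule, the text names the 3 chromosomes with the largest 3 Mb means, the 3 with the largest separated differences, the 3 tallest rises, up to 5 overlapping protein-coding genes of each rise, and the gene nearest the first start. Alternatives were other scales, spans, window sets and weights, X, the replicate block, other limma settings and omission of each library. Omission of chromosome 14 was added after seeing the data. Python 3.11.15, numpy 2.4.6, pandas 2.3.3 and matplotlib 3.10.9 were used.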

Additional observations from a re-analysis of the deposited data

Results flagged for a closer look

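No comparison above used X, whose centromere-proximal end showed lower polarity in each KO library than in each WT library. Its first start with a value in all libraries was 5350001. Over its first 500 kb (20 windows), mean polarity was 0.402 and -2.36 points (WT) versus -6.25 and -8.59 points (KO), and KO minus WT was -6.45 points with replicates spread by 1.81 points (exact permutation p = 0.333). Over its first 3 Mb the means were -6.20 and -5.24 points (WT) versus -10.7 and -7.15 points (KO), and KO minus WT was -3.19 points with replicates spread by 1.82 points (exact permutation p = 0.333). The part of amplitude, depth and copy number of X in these values was not tested.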

How the results depend on the processing

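Of 74 alternatives for values per library, not counting omission of a library, 6 could not move the value by construction (the replicate block, and centring of differences). Of the other 68, 61 kept the direction, 6 reversed it and 1 moved the value, and no permutation test could pass 0.05. The difference in mean polarity became 0.0254 points over 5 Mb and 0.236 points without the first 500 kb. Members minus the other windows became 0.154 points over 5 Mb and 1.42 points without the first 500 kb. The difference between 500 kb and 1 Mb became -0.0140 SD after standardising, that of the last bin 0.209 points without chromosome 14, and that of the first sign change 25 kb, from 62.5 kb, with a running mean of 9 windows.

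Calls among the members, 0 in each main count, depended on the settings, and each share is set beside that over all features tested. After standardising, 1 window (0.181% against 0.372%), 6 blocks of 500 kb (5.45% against 6.94%) and 4 rises (5.80% against 11.6%) passed. With limma's trend and robust options, 5 windows (0.903% against 1.28%), 3 blocks of 500 kb (2.73% against 4.34%) and 1 of 3 Mb (5.26% against 0.502%) passed, and at an adjusted p under 0.1, 1 window (0.181% against 0.228%). With the replicate block, 12 windows (2.17% against 2.66%), 14 blocks of 500 kb (12.7% against 11.6%) and 8 rises (11.6% against 13.5%) passed. Together with standardising, 14 windows (2.53% against 3.54%), 11 blocks of 500 kb (10% against 11.5%), 1 of 3 Mb (5.26% against 2.76%) and 3 rises (4.35% against 11.3%) passed. The replicate number is only a number in the labels. The deviations of same-numbered libraries correlated at 0.241 over all windows as deposited and at 0.0159 once standardised. Over the member windows they correlated at 0.289 and 0.0840. The block left values per library as they were. The cause of these changes was not tested.

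Omission of each library in turn gave differences from -0.574 to 0.0968 points for mean polarity, -2.45 to -1.11 points for the change with distance, 1.27 to 6.17 points for the SD, 0.0238 to 0.0380 for the relative SD, -0.586 to -0.368 points against the other windows, 11.5 to 17.5 windows without a value and 37.5 to 87.5 kb for the first sign change. By bin they were -4.12 to -1.30, -0.459 to 1.02, -1.06 to 0.153, -0.168 to 0.527, 0.694 to 1.68 and -0.144 to 0.0951 points. Calls ranged from 0 to 132 windows, 0 to 44 blocks of 500 kb, 0 to 2 blocks of 3 Mb and 0 to 30 rises, each highest without KO replicate 2; the lone library is then assumed to vary like the other genotype. Without KO replicate 2 the shares of all features were 20.2%, 39.2%, 29.5% and 42.6%. Omission of KO replicate 1 gave 20 windows (3.61% against 5.79%) and 6 blocks of 500 kb (5.45% against 5.92%), and of WT replicate 2, 1 window (0.181% against 0.0296%).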
